A study of Homo sapiens with 8 samples.

Results

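The genes of the proteasome were examined in RKO cells, an established human colon carcinoma line, after knockdown of A20. They were taken as every protein-coding gene whose GENCODE symbol begins with PSMA, PSMB, PSMC, PSMD or PSME, which gave 45 of the 57992 genes in the files. The control group consisted of 4 samples transfected with a control siRNA, and the knockdown group of 4 samples transfected with an siRNA against A20 (gene TNFAIP3, a ubiquitin-editing enzyme that restrains inflammatory signalling). Recombinant human wnt3a at 50 ng/mL was given to both groups for 24 hours, so there was no unstimulated sample and the comparison is of A20 knockdown within wnt3a-treated cells. RNA was sequenced as poly(A)-selected libraries, and the deposited values are uniquely mapped reads per gene. All 45 genes were in the files, but 48 non-coding genes with the same prefixes were left out by the rule.

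The proteasome degrades proteins that carry ubiquitin chains. Its core particle, the 20S, is a barrel of stacked alpha and beta rings with the cutting sites inside the beta rings. The 19S regulatory particle binds ubiquitinated substrates, removes the ubiquitin and unfolds the protein into the core, and alternative activators encoded by the PSME genes can take its place. In cells exposed to interferon, the catalytic beta subunits PSMB5, PSMB6 and PSMB7 can be replaced by the inducible subunits PSMB8, PSMB9 and PSMB10, which form the immunoproteasome and alter the peptides offered to MHC class I. Transcription of subunit genes rises when proteasome activity is blocked, through the factor NFE2L1, which binds antioxidant response elements.

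After A20 knockdown 0 of the 43 proteasome genes tested were lower and 0 were higher at an adjusted p-value under 0.05 (edgeR quasi-likelihood test, Benjamini-Hochberg adjustment over 13412 genes). Over all tested genes the same rule called 0.611% lower and 0.634% higher. At an unadjusted p-value under 0.05, 7 members were lower (PSMA5, PSMB4, PSMB1, PSMA4, PSMB6, PSMA7 and PSMD10, 16.3% of the 43) against 7.37% of all tested genes, and 1 member was higher (PSMC3IP, 2.33%) against 8.81%. The 4 samples of each group did not overlap for 3 members, all lower (PSMA5, PSMB4 and PSMA4, 6.98%), against 3.90% of all tested genes, and for 0 members that were higher, against 3.71%. The largest of the 7 lower differences was small, a log2 fold change of -0.11 for PSMA5. The absence of a call was not the same under every setting. DESeq2 called PSMB4 alone (2.33% of members, against 0.910% of all genes tested that were lower), and limma-voom called 0 members. With no low-count filter PSMA5, PSMB4 and PSMA7 were called (6.82% against 1.08%). Without control replicate 1 there were 4 calls (PSMA5, PSMB4, PSMB1 and PSMA7, 9.3% against 3.18%), without A20 replicate 1 there was 1 (PSMB4, 2.33% against 1.12%), without A20 replicate 2 there was 1 (PSMA5, 2.33% against 1.14%), and leaving out any of the other 5 samples gave 0. The 8 members with an unadjusted p-value under 0.05 in either direction became 4 without A20 replicate 3, 5 without A20 replicate 4, 5 with a correction for exonic length and 4 with a correction for length and GC content.

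Total counts ranged from 21226451 to 34194273 per sample, and 3 counts corresponded to between 0.0877 and 0.141 CPM (reads after scaling every library to one size). Such floors cover counting error only. The siRNA target itself was lower: TNFAIP3 was at 4.92 to 5.83 CPM in the controls and 3.01 to 3.47 CPM after knockdown (log2 fold change -0.71, with a standard error (SE) of 0.095, edgeR adjusted p = 0.00258, and exact two-sided permutation p = 0.0286, the smallest that 4 against 4 allows). Thus 60.8% of the transcript remained. In DESeq2 the log2 fold change was -0.72 without its prior and -0.25 with it. DESeq2 returned no adjusted p-value for this gene. Neither the labels nor the study's methods say that the replicates were separate cultures, so the p-values may measure only technical spread. Of 5 epithelial markers EPCAM, KRT8 and KRT18 were detected while CDH1 and KRT19 had 0 reads. Of 6 intestinal markers only CDX2 passed the filter. VIL1, LGALS4 and GPA33 had at most 2 reads in any sample, and CDX1 and KRT20 had 0 reads. Of 4 mesenchymal markers COL1A1 had at most 4 reads in any sample and did not pass the filter. ZEB1 was at 467.3 ± 17 CPM in the controls and 472.9 ± 10.7 CPM after knockdown, and VIM was at 20.6 ± 0.865 and 19.9 ± 0.839 CPM. FN1, at 19 to 50 reads per sample, was at 0.803 to 0.94 CPM and 1.08 to 1.46 CPM without overlap (log2 fold change 0.58, edgeR adjusted p = 0.103). The 4 leukocyte markers summed to at most 0.0772 CPM and the 3 endothelial markers to at most 0.0998 CPM in any sample. In a bulk library, a lower level in every cell and a lower level in some of the cells cannot be told apart.

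The sequence just upstream of 5 members is shown here to place matches to short patterns beside the expression values. PSMA5, PSMB4 and PSMA4 were taken because their groups did not overlap, and PSMB5 and PSMB9 as a constitutive and an inducible catalytic subunit. The sequences are RefSeq GRCh38.p14, cover up to 250 bases before a RefSeq start, and end at the first GENCODE exon base inside that window. The PSMB9 window lies within the annotated body of the gene, since GENCODE also has transcripts that begin farther upstream, and of several windows for PSMA4 and PSMB5 the most upstream is shown. They are PSMA5 at chr1:109426449-109426698 (minus strand), PSMB4 at chr1:151399323-151399559 (plus), PSMA4 at chr15:78540155-78540404 (plus), PSMB5 at chr14:23035231-23035470 (minus) and PSMB9 at chr6:32853942-32854147 (plus). Capitals mark matches on either strand to TGANNNNGC, where N is any base, and to CCAAT, the NF-Y box. TGANNNNGC is a loosened form of the antioxidant response element core, so a match need not be such an element.
PSMA5: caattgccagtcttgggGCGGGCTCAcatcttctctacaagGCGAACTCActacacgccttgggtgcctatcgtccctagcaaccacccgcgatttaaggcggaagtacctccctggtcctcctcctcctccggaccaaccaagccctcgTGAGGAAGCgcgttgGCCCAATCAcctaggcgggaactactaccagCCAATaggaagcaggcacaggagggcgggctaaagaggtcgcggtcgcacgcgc
PSMB4: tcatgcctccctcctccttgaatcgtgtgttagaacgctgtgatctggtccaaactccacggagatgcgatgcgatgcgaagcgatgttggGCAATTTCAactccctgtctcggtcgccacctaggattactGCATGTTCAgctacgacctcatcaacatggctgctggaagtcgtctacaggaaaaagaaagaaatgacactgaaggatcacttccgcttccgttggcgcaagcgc
PSMA4: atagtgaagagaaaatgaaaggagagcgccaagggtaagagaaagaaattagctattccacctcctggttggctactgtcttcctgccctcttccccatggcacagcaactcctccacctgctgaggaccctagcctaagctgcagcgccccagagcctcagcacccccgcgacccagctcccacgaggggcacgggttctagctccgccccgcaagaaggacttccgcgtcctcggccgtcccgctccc
PSMB5: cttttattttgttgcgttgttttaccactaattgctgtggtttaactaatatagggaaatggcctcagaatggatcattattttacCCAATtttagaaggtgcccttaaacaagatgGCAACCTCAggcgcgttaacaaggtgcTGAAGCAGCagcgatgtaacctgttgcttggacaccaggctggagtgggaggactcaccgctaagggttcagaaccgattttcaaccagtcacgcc
PSMB9: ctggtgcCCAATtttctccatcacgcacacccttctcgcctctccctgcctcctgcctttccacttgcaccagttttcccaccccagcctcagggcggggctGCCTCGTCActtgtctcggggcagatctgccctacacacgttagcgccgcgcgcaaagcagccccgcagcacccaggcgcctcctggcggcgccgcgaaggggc

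The PSMA5 sequence held 4 matches to TGANNNNGC and 2 to CCAAT, 1 of which lay inside a TGANNNNGC match. PSMB4 held 2 matches to TGANNNNGC and 0 to CCAAT, whereas this PSMA4 window held none of either. A PSMA4 window farther downstream (chr15:78540536-78540785), which lies in an exon and is not printed, held 1 of each. PSMB5 held 2 matches to TGANNNNGC and 1 to CCAAT, and PSMB9 held 1 of each. Of the 45 members 40 had an upstream window in the RefSeq table, with 49 windows in all since some have several starts, and PSMA7, PSMB1, PSMB6, PSMB7 and PSMD4 had none. TGANNNNGC was in 57.1% of the member windows and in 35% of the 21507 windows of all genes. As this pattern is loose, these shares are not frequencies of antioxidant response elements. CCAAT was in 44.9% against 33%, and CCGGAAG, an ETS-type site, in 22.4% against 10.8%. These matches are letters only, and whether any is bound in RKO cells was not measured.

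The members lie on 16 chromosomes, with 8 on chromosome 14 and 8 on chromosome 17. PSME1 and PSME2 lie 4394 bases apart on opposite strands, and PSMB5 and PSMB11 are 6981 bases apart. The annotated bodies of PSMB8 (chr6:32840717-32844679) and PSMB9 (chr6:32844136-32859851) overlap by 544 bases on opposite strands, beside TAP1 and TAP2, which transport the peptides the proteasome makes. Coordinates are GENCODE release 44 on GRCh38.

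Reads were counted for every constitutive subunit of the proteasome in all 8 samples. Levels between genes were compared as TPM, which divides reads by the exonic length of the gene. The median over the 45 members was 148.1 TPM against 22 TPM for all tested genes. Together the members held 0.904% ± 0.0138 of the scaled counts in the controls and 0.887% ± 0.0118 after A20 knockdown (SD, n = 4 each). PSMD2, a scaffold of the 19S base, was the most abundant at 1465 TPM over all 8 samples, followed by the core subunits PSMB7 at 1116 TPM and PSMA7 at 1073 TPM. PSMD2 also ranked first by the length of the longest transcript and by that of the canonical transcript, the latter chosen after seeing the data. PSMA8, a testis-specific alpha subunit, had 0 reads in every sample, and PSMB11, the thymic beta subunit, had 1 read in A20 replicate 4 and 0 elsewhere. These were the only members that did not pass the low-count filter, and the other 43 had at least 61 reads in every sample.

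**Figure D1:**
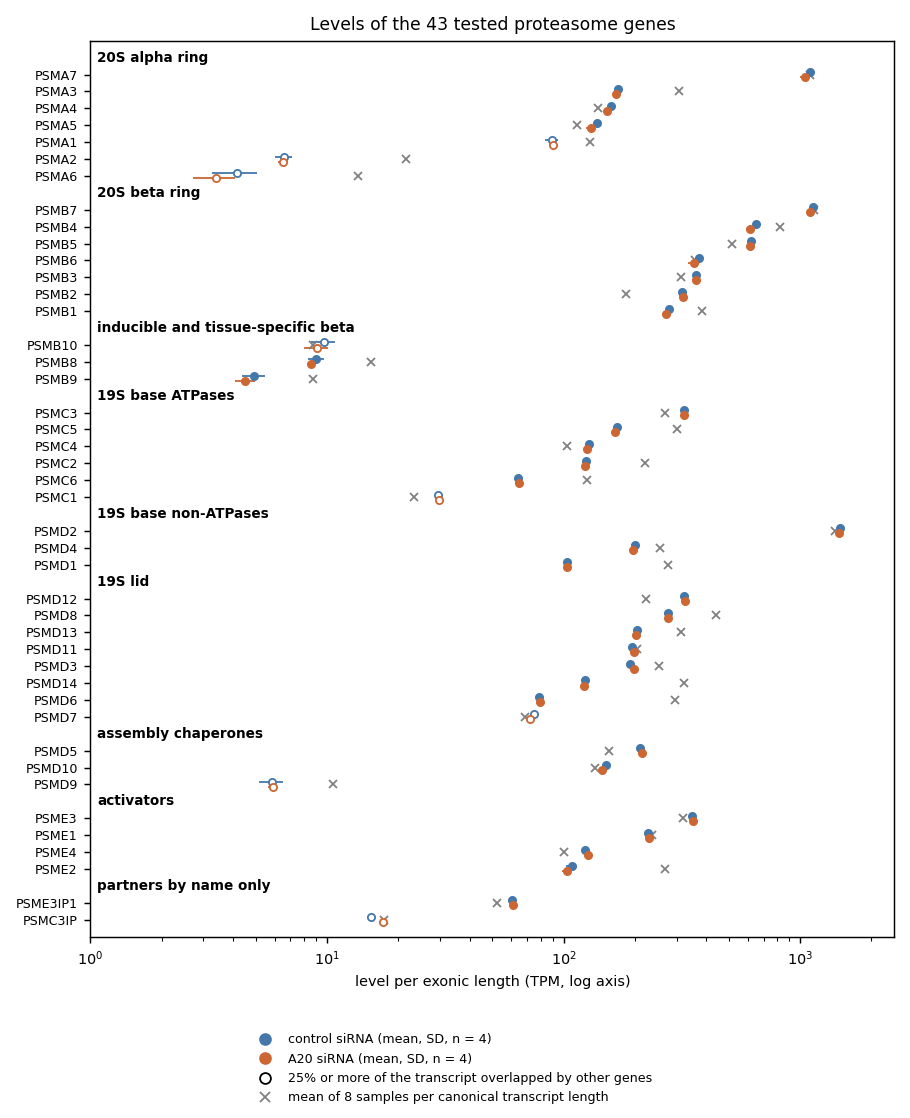
Level per exonic length (TPM, log axis) of the 43 tested members, grouped by role, with the mean and SD of 4 control siRNA samples (blue) and 4 A20 siRNA samples (orange). Open circles are members with 25% or more of the canonical transcript overlapped by exons of other genes and grey crosses give the mean of all 8 samples per canonical transcript length; PSMD2 is highest at 1465 TPM and PSMA6 lowest at 3.77 TPM, whereas on canonical length PSMA6 is at 13.5 TPM and PSMB9 is lowest at 8.7 TPM, and the groups lie close together in every row.

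Subunits that occur in equal numbers in the assembled particle were not equal in these counts. Among the 14 constitutive 20S genes the level ran from 3.77 TPM (PSMA6, 13.5 TPM on canonical transcript length) to 1116 TPM (PSMB7), with a median of 297.1 TPM. The lowest of these 14 genes, PSMA6 and PSMA2, had annotated overlap. The inducible PSMB9 (4.72 TPM) and PSMB8 (8.78 TPM) were also low, with 0% of the canonical transcript overlapped. For 8 members, 25% or more of the canonical transcript was overlapped by exons of other genes: PSMA2 (100%), PSMC1 (83.2%), PSMA6 (81.4%), PSMA1 (67%), PSMC3IP (57.2%), PSMB10 (56.1%), PSMD7 (51.6%) and PSMD9 (28.8%). The median level of these 8 was 12.8 TPM, and of the other 37 it was 195.2 TPM. The 8 also differ in role, as they include PSMB10, PSMD9 and PSMC3IP, and among them PSMA1 was at 89.7 TPM and PSMD7 at 73.5 TPM. For PSMA6, PSMA2 and PSMA1 a gene on the same strand overlaps, and PSMA2 is also overlapped by a processed pseudogene on the opposite strand. Each of these overlapping genes had at most 2 reads in any sample. PSMB10 and PSMD9 are also overlapped on the same strand, by a gene with 12 to 32 reads per sample and by a gene with at most 2. Reads that fit more than 1 gene may be left out of unique counts, and its part in these low levels was not tested. Without the overlapped members, the 11 remaining 20S genes ran from 134.3 TPM (PSMA5) to 1116 TPM, an 8.31-fold range that was 10.1-fold on canonical transcript length, and the 15 remaining 19S genes from 64.6 TPM (PSMC6) to 1465 TPM, a 22.7-fold range that fell to 13.6-fold on canonical transcript length. The 25% limit was chosen after seeing the data.

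The alpha ring, which forms the gated entrance of the core, held the members with the smallest p-values together with the beta ring. PSMA5 (chr1:109399042-109426448) was at 181.7, 186.3, 182.8 and 193.6 CPM in control replicates 1 to 4 and at 178.5, 180.8, 162.9 and 167.6 CPM in the A20 samples. Every A20 sample lay below every control sample, and A20 replicates 3 and 4 lay lowest. The log2 fold change was -0.11 (SE 0.031, 95% interval -0.17 to -0.04, edgeR adjusted p = 0.0834). PSMA4 (chr15:78540405-78552417) was at 259, 254.4, 257 and 264.7 CPM in the controls and at 248, 254, 240.1 and 245.1 CPM after A20 knockdown. The nearest samples, control replicate 2 and A20 replicate 2, were almost equal, and the log2 fold change was -0.07 (SE 0.023, edgeR adjusted p = 0.153). PSMA7, the most abundant alpha subunit, was at 430, 451.7, 462.1 and 460.1 CPM in the controls and at 441.9, 444.1, 409.4 and 402.9 CPM after A20 knockdown. Control replicate 1 lay within the A20 values here, and the log2 fold change was -0.09 (SE 0.031, edgeR adjusted p = 0.174), or -0.05 with exonic length corrected for.

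PSMA6 was outside the rule for choosing which members to describe in full, and was picked after its values were seen. It had the most negative estimate of all members and the widest interval. It was counted at only 82 to 230 reads per sample, at 7.65, 6.46, 4.47 and 6.64 CPM in the controls and at 6.33, 5.51, 4.79 and 3.86 CPM after A20 knockdown. The groups overlapped, with a log2 fold change of -0.27 (95% interval -0.56 to 0.02, edgeR adjusted p = 0.348). The remaining alpha subunits PSMA1, PSMA2 and PSMA3 had log2 fold changes between -0.03 and 0.01.

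In the beta ring PSMB4, a non-catalytic subunit involved in joining the half-particles, had the smallest p-value of all members. PSMB4 (chr1:151399560-151401937) was at 310, 322.7, 325.4 and 329.7 CPM in the controls and at 309.7, 308.5, 292.8 and 293.9 CPM after A20 knockdown. Control replicate 1 and A20 replicate 1 were almost equal, so the groups barely separated. The log2 fold change was -0.09 (SE 0.026, 95% interval -0.15 to -0.04, edgeR adjusted p = 0.0679). The catalytic subunits also had negative estimates, which came nearer 0 once exonic length was corrected for (PSMB6 from -0.09 to -0.05, PSMB7 from -0.05 to -0.02 and PSMB5 from -0.04 to 0.00). PSMB6, the caspase-like site, was at 126.5 ± 3.11 CPM in the controls and 118.8 ± 6.5 CPM after A20 knockdown (SD, n = 4 each; log2 fold change -0.09, edgeR adjusted p = 0.182). PSMB7, the trypsin-like site, was at 472.4 ± 13.1 and 456.8 ± 8.88 CPM, and PSMB5, the chymotrypsin-like site and the main target of bortezomib, was at 225.2 ± 5.62 and 219.2 ± 5.73 CPM, with edgeR adjusted p-values of 0.331 and 0.486. PSMB2 was at 336.1 CPM in both groups.

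**Figure D2:**
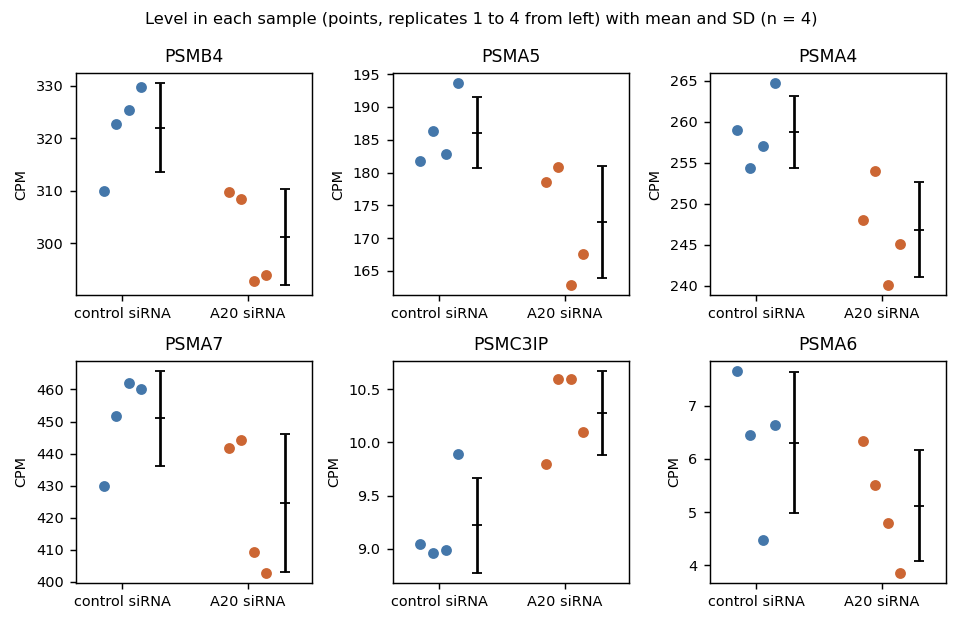
CPM in each sample for PSMB4, PSMA5, PSMA4, PSMA7, PSMC3IP and PSMA6, with replicates 1 to 4 from left to right in each group and the mean and SD (n = 4) beside them; the vertical axes do not start at 0. The groups do not overlap for PSMB4, PSMA5 and PSMA4, and for PSMB4 the nearest samples are 310 and 309.7 CPM.

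Subunits of the immunoproteasome were transcribed at a small fraction of their constitutive counterparts. PSMB8 was at 7.55, 7.59, 7.56 and 6.6 CPM in the controls and at 7.2, 6.55, 6.88 and 6.96 CPM after A20 knockdown. PSMB9 was at 3.56, 3.48, 4.47 and 3.85 CPM and then at 2.99 to 3.8 CPM, and PSMB10 was at 3.12 to 4.12 CPM and then at 2.87 to 3.87 CPM. The groups overlapped for all 3, which had 61 to 247 reads per sample. Their log2 fold changes were -0.09 (95% interval -0.24 to 0.07), -0.13 (-0.37 to 0.10) and -0.10 (-0.34 to 0.14). Differences inside those limits remain compatible with these values. Per exonic length, PSMB5 exceeded PSMB8 by 65.5 to 79.5-fold over the 8 samples, PSMB6 exceeded PSMB9 by 64.5 to 91.5-fold, and PSMB7 exceeded PSMB10 by 103.6 to 143.2-fold. On canonical transcript length the first pair of ratios fell to 31.4 to 38.1-fold and 34.5 to 48.9-fold, and the third was 113.1 to 156.4-fold. The low values of PSMB10 go with a 56.1% overlap of its transcript by another gene on the same strand. In each pair the ranges of the control and A20 samples overlapped.

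**Figure D3:**
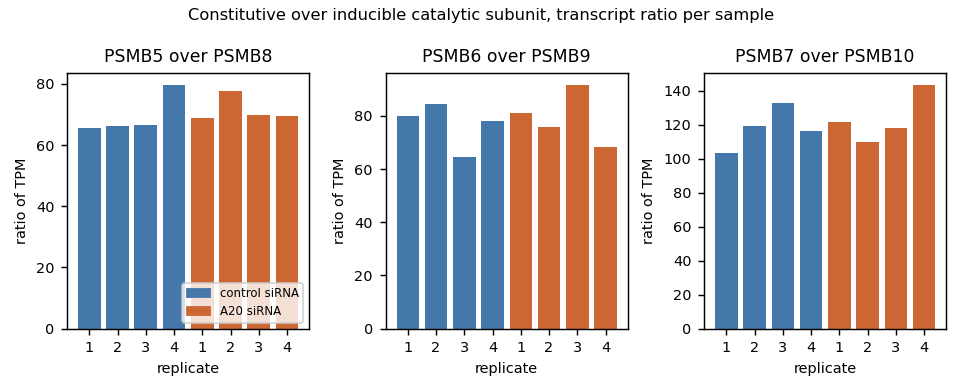
Ratio of the constitutive to the inducible catalytic subunit in each sample, from levels per exonic length (TPM), for replicates 1 to 4 with control siRNA (blue) and A20 siRNA (orange). The constitutive transcript exceeds the inducible one in all 8 samples, by at least 64.5-fold, and the groups overlap in each panel.

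Estimates for the members of the regulatory particle lay nearer 0 than those for the core, and the difference between them was not tested. Of the 17 members in the 19S base and lid 14 had a negative log2 fold change, with a median of -0.017. Of these 17, 0 reached an unadjusted p-value under 0.05. SEM1, a lid subunit, and the ubiquitin receptor ADRM1 lack the symbol prefix and are not among the 17. Their log2 fold changes were -0.19 and -0.05 (edgeR adjusted p = 0.0333 and 0.348). Of the 14 constitutive 20S genes 12 were negative, with a median of -0.055, and 6, all lower, had an unadjusted p-value under 0.05, a threshold that 7.37% of all tested genes passed with a lower level and 8.81% with a higher one. The median over all tested genes was 0.003 and 48.4% were negative, against 34 of 43 members (79.1%, median -0.029). These counts are descriptions and members share samples, so no test was made of them. PSMD2 was at 1709 ± 30.4 CPM in the controls and 1675 ± 21.4 CPM after A20 knockdown (SD, n = 4 each; log2 fold change -0.03, edgeR adjusted p = 0.493). The ATPases PSMC1 to PSMC6, which thread substrates into the core, had log2 fold changes between -0.04 and 0.00. Among lid genes PSMD3 had the most positive change, at 221.9 ± 8.25 and 228 ± 0.675 CPM (log2 fold change 0.04, edgeR adjusted p = 0.468), and PSMD14, the deubiquitinase that removes chains from substrates, was at 210.4 ± 4.86 and 206.5 ± 3.36 CPM. PSMD11, a lid scaffold, was at 323.1 ± 3.68 and 326 ± 7.7 CPM (edgeR adjusted p = 0.837).

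**Figure D4:**
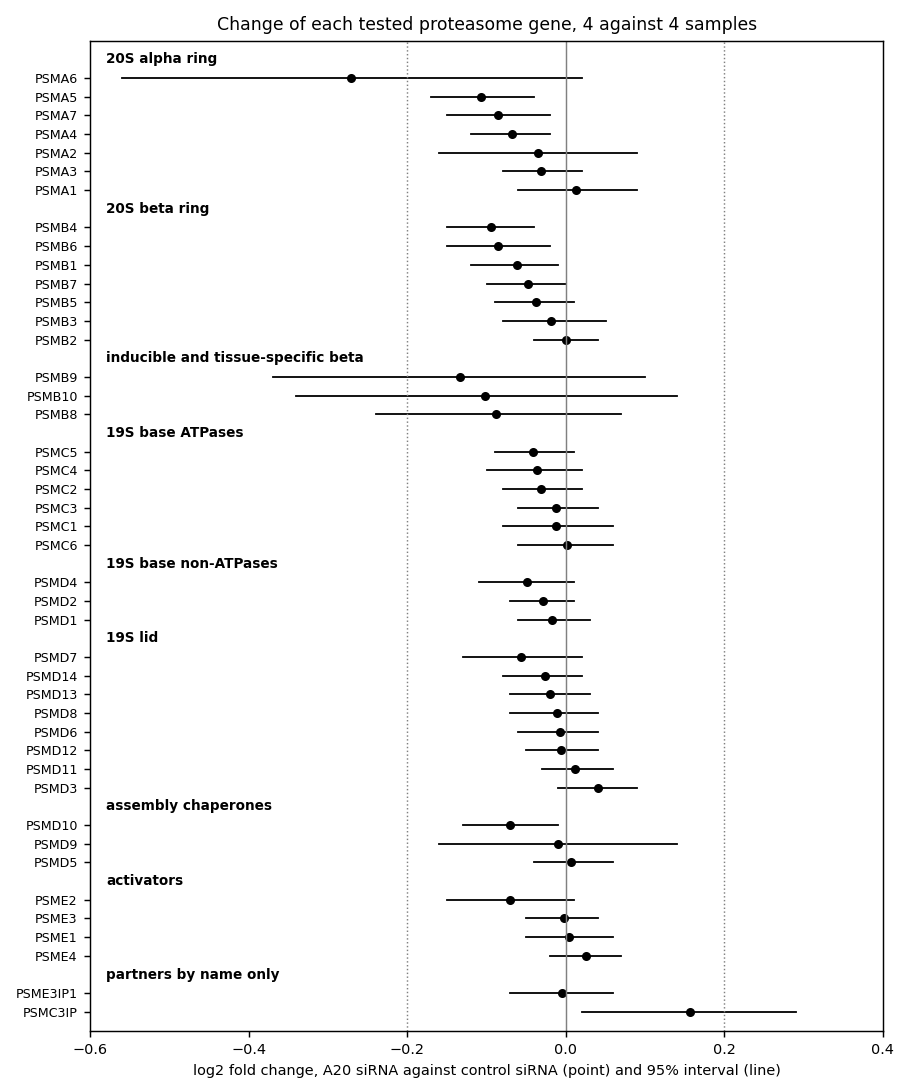
Log2 fold change of A20 siRNA against control siRNA (point) with its 95% interval (line) for each of the 43 tested members, by role, from 4 against 4 samples; dotted lines mark a log2 change of 0.2 in either direction. The intervals of 38 members lie within the dotted lines, and those of PSMB8, PSMB9, PSMB10, PSMA6 and PSMC3IP do not.

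The summed CPM of the 14 core genes divided by that of the 17 19S genes was 0.574, 0.574, 0.573 and 0.582 in control replicates 1 to 4 and 0.569, 0.568, 0.551 and 0.551 in A20 replicates 1 to 4. The groups did not overlap, though A20 replicates 1 and 2 lay near the controls. SEM1 and ADRM1 were not in the 19S sum. Samples that were high or low for the core were high or low for cytosolic ribosomal protein genes too. Control replicate 4 had the highest median deviation from the gene means for both, 0.07 and 0.125 on the log2 scale, and A20 replicates 3 and 4 the lowest, -0.053 and -0.048 for the core and -0.11 and -0.122 for the ribosomal proteins. For the 77 cytosolic ribosomal protein genes the median log2 fold change was -0.119 with 16 called lower, where 0.611% of all tested genes were called lower. The 77 mitochondrial ones tested had -0.046 with 0 called, and the 9 genes of the CCT chaperonin had -0.041 with 0 called. Across all tested genes the log2 fold change had a Spearman correlation of 0.18 with exonic length (genes are not independent replicates), and the median exonic length was 2634 bases for the 20S genes, 4960 for the 19S genes and 4982 for all tested genes. With exonic length corrected for, the median was -0.042 for the 20S and -0.018 for the 19S. The part of length or of the sample differences in the lower core values was otherwise not tested.

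**Figure D5:**
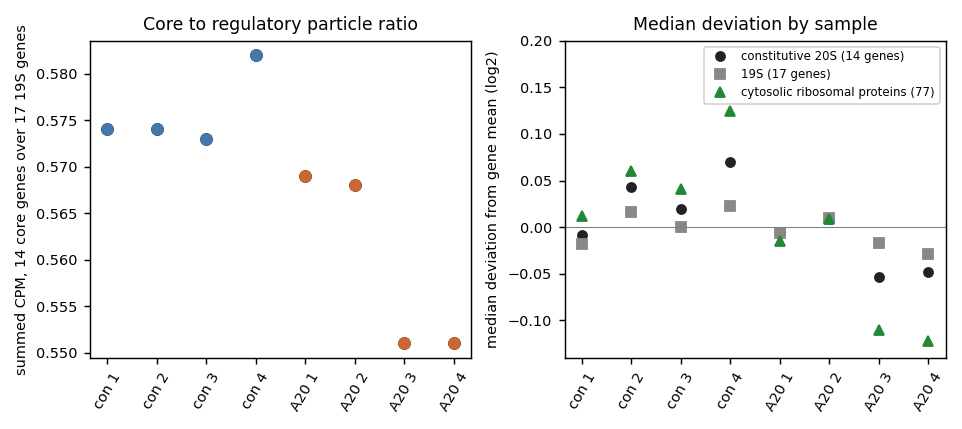
Left, summed CPM of the 14 constitutive 20S genes over that of the 17 19S genes in each control siRNA (con, blue) and A20 siRNA (orange) sample; the axis does not start at 0 and the groups do not overlap (0.573 to 0.582 and 0.551 to 0.569). Right, median log2 deviation from the mean of each gene for the 20S (black circles), the 19S (grey squares) and 77 cytosolic ribosomal protein genes (green triangles); control replicate 4 is highest and A20 replicates 3 and 4 lowest for the 20S and ribosomal genes.

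Activators and chaperones showed no call. PSME1 and PSME2, the interferon-responsive PA28 subunits, were at 94.1 ± 2.16 and 90.5 ± 4.94 CPM in the controls and at 94.3 ± 3.12 and 85.9 ± 4.46 CPM after A20 knockdown (SD, n = 4 each). PSME3, the nuclear PA28 gamma, was at 421.2 ± 7.79 and 420.6 ± 5.76 CPM, and PSME4 (PA200) was at 299.6 ± 3.82 and 304.9 ± 7.81 CPM. Their edgeR adjusted p-values were between 0.384 and 0.975. Of the base assembly chaperones PSMD5, PSMD9 and PSMD10, PSMD10 (gankyrin) was at 84.4 ± 3.18 and 80.4 ± 2.01 CPM (log2 fold change -0.07, edgeR adjusted p = 0.250).

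A pair of members carry a proteasome symbol only as partners of a subunit. PSMC3IP (chr17:42572310-42577831), which encodes a factor of meiotic and homologous recombination, was at 9.05, 8.96, 8.99 and 9.89 CPM in the controls and at 9.8, 10.6, 10.6 and 10.1 CPM after A20 knockdown. The fourth control sample exceeded the first A20 sample, so the groups overlapped, with a log2 fold change of 0.16 (SE 0.063, 95% interval 0.02 to 0.29, edgeR adjusted p = 0.220). Of its canonical transcript 57.2% is overlapped by MLX on the opposite strand, and without strand the reads of the pair cannot be told apart. PSME3IP1 was at 61.4 ± 1.89 and 61.2 ± 1.47 CPM.

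Small changes could be bounded against the spread between these replicates. As the replicates may not be separate cultures, the intervals may hold technical spread only and may not bound differences between cultures. For 38 of the 43 members the 95% interval of the log2 fold change lay within 0.2 in either direction, that is within a rise of 14.9% or a fall of 12.9%. The interval left out 0 for 8 members (18.6%), without adjustment for the number of genes, and 16.2% of all tested genes had an unadjusted p-value under 0.05 in either direction.

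Around the proteasome, 3 genes of the other pathway lists were called, all lower. Of the 16 other subunits, assembly factors and regulators, SEM1, a small subunit of the lid, fell from 163.7 ± 4.82 to 143.4 ± 11.6 CPM (log2 fold change -0.19, edgeR adjusted p = 0.0333). Its list was 10 negative and 6 positive. The core assembly factor POMP was at 175.3 ± 3.28 and 168.8 ± 6.7 CPM, the ubiquitin receptor ADRM1 at 137.1 ± 4.1 and 132.2 ± 3.22 CPM and the inhibitor PSMF1 at 187.1 ± 3.79 and 180.8 ± 3.99 CPM, with edgeR adjusted p-values from 0.322 to 0.348. PSMG1 to PSMG4, chaperones of the alpha ring, had log2 fold changes between -0.07 and 0.00. Of 6 genes for ubiquitin and its E1 enzymes, all negative, UBB fell from 366.3 ± 18.4 to 304.7 ± 42.8 CPM (log2 fold change -0.26, edgeR adjusted p = 0.0460) and RPS27A, a ubiquitin fusion with a ribosomal protein, from 652.8 ± 18 to 583.5 ± 38.9 CPM (log2 fold change -0.16, edgeR adjusted p = 0.0333). All tested genes were called lower at a rate of 0.611%. In SEM1, UBB and RPS27A the 2 lowest values were those of A20 replicates 3 and 4, the samples that were also lowest for the ribosomal proteins: 137.1 and 130.2 CPM for SEM1 against 154.2 and 152.1 CPM in A20 replicates 1 and 2, 277.6 and 259.1 against 345.9 and 336 CPM for UBB, and 564.5 and 538.9 against 624.3 and 606.2 CPM for RPS27A. The calls of these 3 genes were lost in DESeq2 (adjusted p from 0.0701 to 0.216) and without control replicate 2, 3 or 4 or A20 replicate 3 or 4 (edgeR adjusted p from 0.0696 to 0.179), with log2 fold changes between -0.13 and -0.29 in those leave-outs. For UBB the call was also lost with at least 10 counts in every sample (adjusted p = 0.0513). A20 replicates 3 and 4 were also the most alike of the same-group pairs, with a chi-square per degree of freedom of 1.31. The part of these samples in the calls was not tested further. NFE2L1 was at 229.3 ± 2.09 and 234.3 ± 2.08 CPM (log2 fold change 0.03, edgeR adjusted p = 0.494), and 0 of the 12 genes of its axis and 0 of 10 substrate delivery genes were called. Of 9 genes of MHC class I loading and its regulators 8 were tested and 0 were called. TAP1 was at 16.7 ± 1.37 and 16.3 ± 0.448 CPM, and TAP2 had 0 reads in every sample. Overlap by other genes was examined only for the members, so 0 unique reads for TAP2 need not mean that it was not transcribed. The smallest edgeR adjusted p-value was 0.0888 for B2M (log2 fold change -0.11).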

How the data were processed

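RKO cells with control siRNA (n = 4) or A20 siRNA (n = 4) were compared, grouped by the sample labels. The authors trimmed single reads with Trimmomatic, mapped them to GRCh38.p7 with STAR and deposited raw, unnormalized counts of the reads that mapped uniquely to each gene. The strand setting and the GENCODE release are not given in the sources used here, and reads shared by overlapping or near-identical genes are uncertain. Symbols and lengths came from GENCODE 44, which matched 56948 of 57992 identifiers.

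From the deposited counts, edgeR 4.0.16 (R 4.3.3) was run with TMM normalization, filterByExpr at a minimum count of 10 and the quasi-likelihood test without covariates. Values were adjusted by Benjamini-Hochberg over 13412 genes at 0.05. Intervals of fold changes are 95% intervals from the test's SE. Per-sample deviations used log2 of CPM plus 0.5. The script was tested on simulated data. Total counts of 21226451 to 34194273 set the precision. Between samples of the same group the chi-square per degree of freedom was 1.31 to 3.69. The lowest, 1.31, was between A20 replicates 3 and 4, and the next lowest, 2.04, between control replicates 3 and 4. Such values do not show whether these samples were separate cultures.

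Members and gene lists were chosen with earlier results of these data known. Named members were the 4 of smallest p in each direction, catalytic pairs, activators, the highest and lowest level in each role and those not tested. Alternatives were RLE size factors, other filters, DESeq2 1.42.0, limma-voom 3.58.1, a replicate block, length and GC corrections (loess span 0.5), samples left out in turn, other lengths and, chosen after seeing the data, canonical length.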

Additional observations from a re-analysis of the deposited data

Results flagged for a closer look

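Within each group of 4 samples, the gap between the highest or lowest sample and its nearest neighbour was divided by the range of the group (Dixon's ratio, at its 95% critical value). Of 86 such groups of the tested members 6 passed, against 4.3 that chance gives. In control replicate 4, PSMB8 was low (6.6 CPM, nearest 7.55, gap share 0.956), PSMD14 was high (217.7, nearest 208.5, 0.916) and PSMC3IP was high (9.89, nearest 9.05, 0.912). In control replicate 1, PSME4 was high (305.3 CPM, nearest 298.3, 0.842). Among A20 samples, PSMD7 was low in replicate 4 (42.1 CPM, nearest 46, 0.857) and PSME1 was high in replicate 2 (99 CPM, nearest 93.2, 0.848). Control replicate 4 accounts for 3 of the 6, in both directions, and it is also the sample with the highest 20S and ribosomal protein medians. A total of 6 against 4.3 does not set any sample apart, and a link to those medians was not tested.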

How the results depend on the processing

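The number of members called lower, 0 as reported, was 3 with no low-count filter (PSMA5, PSMB4 and PSMA7), 1 by DESeq2 with or without its prior (PSMB4), 2 with the replicate block (PSMA5 and PSMB4) and 1 when the block was joined to a correction for length and GC (PSMA5). Leaving out 1 sample at a time gave 0 to 4 members. It remained 0 with RLE size factors, with at least 10 counts in every sample, by limma-voom, with the length or the length and GC correction and without PSMC3IP and PSME3IP1, and 0 members were called higher under any setting. Over all genes 167 were called, 624 with no filter, 474 with the replicate block, 459 when that block was joined to the length and GC correction, and 12 to 997 without 1 sample. The fewest, 12, came without A20 replicate 3, the most, 997, without control replicate 1, with 18, 45 and 16 without control replicates 2, 3 and 4 and 277 and 51 without A20 replicates 2 and 4. The cause was not tested. The replicate numbers share only a number: same-number correlations of deviations were 0.0838, 0.0336, 0.0354 and -0.00982.

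The median log2 fold change of the members stayed between -0.040 and -0.020 under all settings. Leaving out 1 sample moved it from -0.04 to -0.022, the 20S median from -0.066 to -0.05 and the 19S median from -0.031 to -0.01. No member changed sign in a setting that called it. Among the named members, small uncalled estimates did change sign in at least 1 setting, including those of PSMC3, PSMD5, PSMD9, PSME1 and PSME3IP1. PSMC3 went from -0.01 to between 0.01 and 0.02 with the length corrections. PSMD9 went from -0.01 to as high as 0.03 without control replicate 1, and PSME1 from 0.00 to -0.02 without A20 replicate 2. Levels per length depended on the transcript length used, by over 1.5 times for the PSMB5 to PSMB8 and PSMB6 to PSMB9 ratios (means 70.4 and 78, against 33.8 and 41.7 on canonical length, and 66.6 and 103.8 on the longest transcript). Depth limited PSMB8, PSMB9, PSMB10 and PSMA6, which had at most 247 reads in any sample.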
